A study of Rattus norvegicus with 40 samples.

Results

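Iron handling and hepcidin control were followed through 10 genes in rat liver during chemically induced hepatocarcinogenesis. The genes were taken by symbol from the count files, in which all 10 were present among 17337 genes: Tfrc, Tfr2, Tf, Slc11a2, Slc39a14, Fth1, Slc40a1, Hamp, Hfe and Bmp6. Messenger RNA was sequenced in 40 liver libraries from 24 male Fischer 344 rats. From 7 weeks of age rats received weekly intraperitoneal diethylnitrosamine (DEN), a liver carcinogen that hepatocytes activate, at 50 mg/kg. They were sampled after 8 or 14 weeks of DEN, or at 20 weeks, 6 weeks after the last of 14 weekly doses. Rats of the same age that received no DEN were sampled at each time, and whether they were injected with the oil alone is not given in the sources used here. Each of the 6 treatment-by-time arms held 4 rats. In DEN rats the non-tumoral liver (NT) was sequenced at all times, and 2 tumour nodules per rat were sequenced at 14 and 20 weeks, so that NT at those times was liver that also carried nodules. The 2 nodules of a rat were summed into 1 value. One DEN rat at 14 weeks (F06), 1 at 20 weeks (F03) and 2 at 8 weeks (F09, F10) carried identifiers beginning with F, whereas the other DEN rats and all no DEN rats carried H. The samples were pieces of whole tissue, so fewer cells of a type and less RNA per cell cannot be told apart.

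Plasma iron travels bound to transferrin (Tf) and enters cells through transferrin receptor 1 (Tfrc). Iron that exceeds transferrin's capacity enters hepatocytes through the carrier ZIP14 (Slc39a14), DMT1 (Slc11a2) moves iron out of endosomes, ferritin (heavy chain Fth1) stores it and ferroportin (Slc40a1) is the exporter of cellular iron. Hepatocytes secrete hepcidin (Hamp), a peptide that binds ferroportin and brings about its degradation, so the liver sets how much iron enters plasma. Hamp transcription is driven by BMP ligands from sinusoidal endothelium (Bmp6, Bmp2) acting through SMAD proteins with hemojuvelin as co-receptor, by the sensors HFE and transferrin receptor 2 (Tfr2), and by IL-6 acting through STAT3. Tfrc, Fth1 and Slc40a1 messages also carry iron-responsive elements that iron regulatory proteins bind. This binding acts on message stability or on translation, depending on the message, so RNA levels do not give protein levels.

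Libraries held 20528515 to 39355849 counted read pairs, with 1 exception of 160622633 pairs (NT of rat H26 at 20 weeks). The 2 nodule libraries of rat F06 had the highest shares of read pairs outside annotated exons, 34.5% and 28.2%, against a median of 23.9% over all libraries. The first nodule of F03 had the highest share of pairs with several alignments, 16.3%, against 13.2% in the next library. The lowest count of a member in a rat was 9, for Bmp6, and the next lowest was 355, for Slc40a1. Hepatocyte markers were present in every group, and Alb took 10.4% to 19.0% of the counts of a library. The summed level of the 6 hepatocyte markers was 229800 to 268400 CPM (counts scaled to a common library size) in no DEN livers, 141500 to 240700 in NT and 113700 to 179000 in nodules. The 7 detected of 8 macrophage markers summed to 287 to 884 CPM in no DEN livers, 325 to 860 in NT and 338 to 726 in nodules, with the highest NT and nodule values at 14 weeks in rat F06.

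Expression is given as CPM after TMM scaling, and each comparison used the quasi-likelihood test of edgeR on counts, with Benjamini-Hochberg adjustment over all genes tested. A gene was called when its adjusted p was at most 0.05 and its log2 fold change at least 0.5 in either direction. In NT against no DEN, 1 of 10 members was called at 8 weeks (Hamp, higher), where 21.7% of the 10812 genes tested were called, 16.5% higher and 5.21% lower. At 14 weeks 3 of 10 were called (Tfrc and Slc40a1 higher, Tfr2 lower) against 32.6% of all genes, 22.8% higher and 9.85% lower, and at 20 weeks 1 of 10 (Slc40a1, higher) against 18.1%, 14.3% higher and 3.82% lower. In nodules against no DEN, 6 of 10 members were called at 14 weeks against 39.1% of all genes (23.9% higher, 15.2% lower), and 7 of 10 at 20 weeks against 38.8% (23.6% higher, 15.2% lower). Tfrc, Fth1 and Slc40a1 were higher and Tfr2, Slc11a2 and Slc39a14 lower in nodules at both times, and Bmp6 was higher at 20 weeks. The median log2 fold change of the 10 members lay between -0.27 and 0.071 in these 5 comparisons, and that of all genes between -0.0078 and 0.020. NT and nodules of a given week were set against the same no DEN rats, so their differences are not independent of each other.

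**Figure D1:**
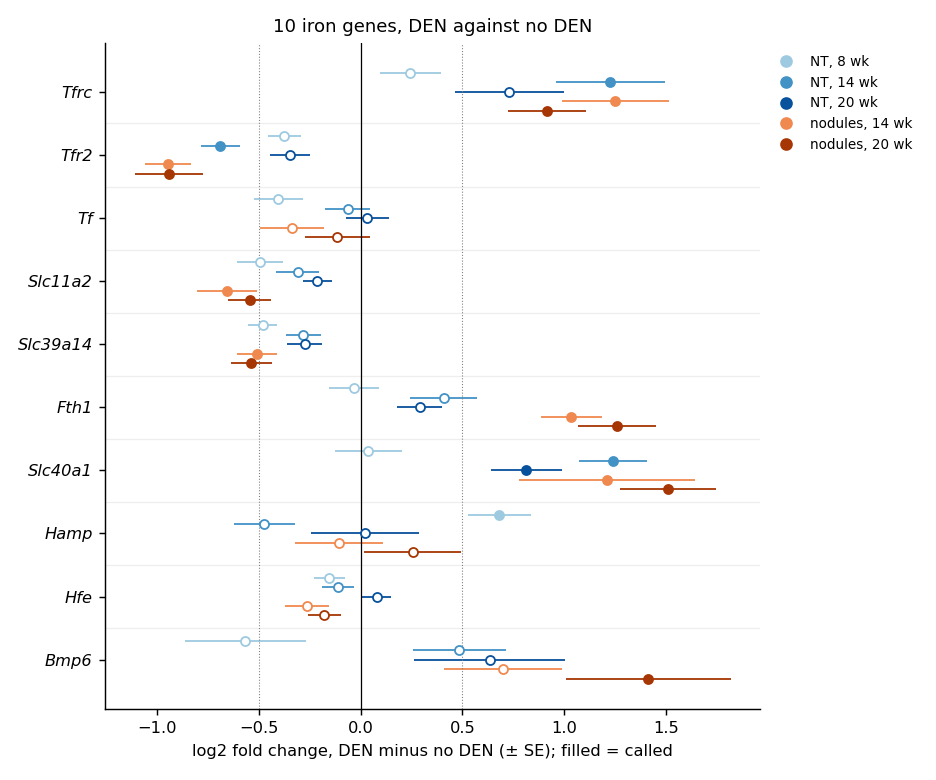
Log2 fold change of the 10 iron genes in DEN against no DEN liver of the same week (x axis; horizontal bars, SE; 4 rats per group), with 1 row of points per gene and a colour per comparison; filled points were called and dotted lines mark 0.5 in either direction. Slc40a1 and Tfrc lie to the right from 14 weeks on, Tfr2 lies to the left in every comparison, and Hamp changes side between 8 and 14 weeks.

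The stretch before the Hamp transcription start is shown because both of the inputs described above meet there. It is taken from the RefSeq promoter table of build GRCr8 at chr1:95300272-95300521, minus strand, as the 250 bases before the start, whereas the counts were made on rn6. Capitals mark matches to the core letters of a BMP response element (GGCGCC) and of a STAT site (TTCNNNGAA), searched on both strands.
Hamp: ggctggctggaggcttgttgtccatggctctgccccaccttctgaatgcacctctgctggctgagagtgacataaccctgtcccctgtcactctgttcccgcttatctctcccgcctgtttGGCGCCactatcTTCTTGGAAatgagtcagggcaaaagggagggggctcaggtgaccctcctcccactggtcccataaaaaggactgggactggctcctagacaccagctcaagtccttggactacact
The first match lay 129 to 124 bases before the start and the second, TTCTTGGAA, 117 to 109 bases before it, with no overlap. GGCGCC occurred in 8.69% and TTCNNNGAA in 7.67% of the 33469 windows of the same length in the table. A match describes letters in the window and not a bound factor. The table held 7 of the 10 members and Slc39a14, Fth1 and Hfe were missing. Among the windows of the other 6 matched members, GGCGCC was found in Tfrc alone and TTCNNNGAA in none.

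Hamp was higher in NT than in no DEN liver at 8 weeks. Its level was 175, 260.3, 283 and 293 CPM in the 4 no DEN rats and 349.6, 390.2, 434 and 451 CPM in the 4 DEN rats. Every DEN rat lay above every no DEN rat, with means of 253 ± 53.7 and 406 ± 45.5 CPM (SD, n = 4). The log2 fold change was 0.68 (SE 0.15, edgeR adjusted p = 0.00693). With rats numbered H alone, 2 of them DEN rats, it was 0.72 (edgeR adjusted p = 0.0300).

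At 14 weeks Hamp was not called in NT, where its direction was the opposite. The no DEN rats had 311, 377, 439.9 and 445 CPM and the NT samples 223, 266, 272 and 345 CPM. The groups overlapped in 1 rat, H22, whose NT value lay above the lowest no DEN value. The log2 fold change of -0.47 (SE 0.15, edgeR adjusted p = 0.0212) did not reach the fold threshold. It became a call without no DEN rat H09 (-0.58, edgeR adjusted p = 0.00664) or without DEN rat H22 (-0.60, edgeR adjusted p = 0.00458). The no DEN livers themselves stood at 393 ± 63.0 CPM at 14 weeks against 253 ± 53.7 CPM at 8 weeks, a difference that was not tested.

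The change of the DEN effect between the times was tested as an interaction, called at an adjusted p of at most 0.05. From 8 to 14 weeks the DEN effect on Hamp in NT moved by -1.15 on the log2 scale (SE 0.24, edgeR adjusted p = 0.0106). Hamp and Slc40a1 were the 2 of 10 members so called, where 8.96% of the 11219 genes tested were. In 1 fit over all 8 groups the adjusted p rose to 0.0571 for Hamp at nearly the same size, -1.19. From 14 to 20 weeks the effect on Hamp moved by 0.50 (SE 0.33, edgeR adjusted p = 0.464), and 0 of 10 members were called there against 0.738% of all genes. In nodules 0 of 10 members were called for a change from 14 to 20 weeks, where 0.0862% of all genes were.

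At 20 weeks Hamp did not separate DEN from no DEN liver. The no DEN rats had 178, 277, 348 and 417 CPM, NT had 225, 262, 369 and 379 CPM and nodules had 316, 326, 377 and 465 CPM. All 3 groups overlapped, and the log2 fold change was 0.02 in NT (SE 0.27, edgeR adjusted p = 0.961) and 0.26 in nodules (SE 0.24, edgeR adjusted p = 0.392). In nodules at 14 weeks, with 249, 308, 424 and 497 CPM, it was -0.11 (SE 0.22, edgeR adjusted p = 0.707).

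**Figure D2:**
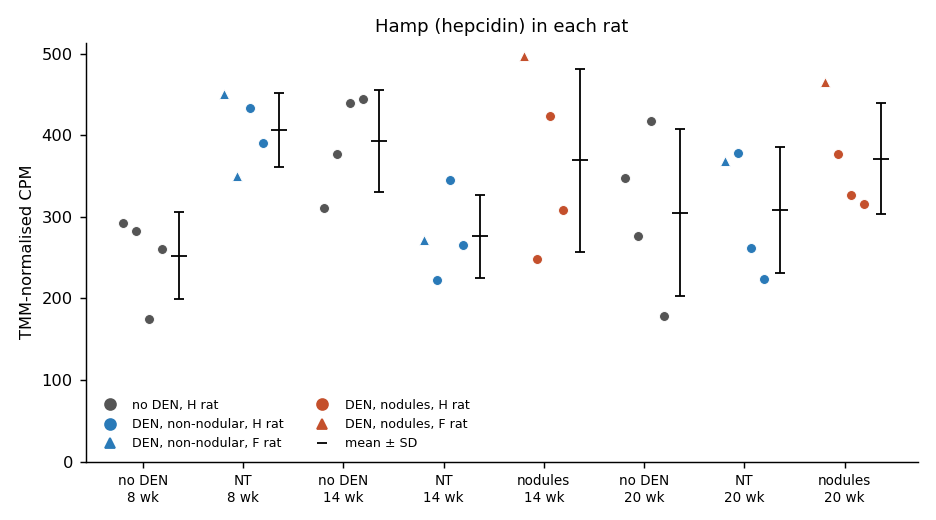
Hamp in TMM-normalised CPM (y axis) in each rat of the 8 groups (x axis); circles are rats numbered H, triangles rats numbered F, and bars the group mean ± SD (n = 4). The NT points at 8 weeks lie above all 4 no DEN points, the NT points at 14 weeks lie mostly below theirs, and the groups at 20 weeks overlap.

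Bmp6, the BMP ligand that rises with liver iron, was the lowest member and was called in nodules at 20 weeks. No DEN livers had 0.378, 0.571, 1.03 and 1.34 CPM and the nodules 1.44, 1.79, 2.13 and 3.57 CPM, so the groups did not overlap. The log2 fold change was 1.41 (SE 0.40, edgeR adjusted p = 0.0140), and with the first nodule of each rat alone it was 0.93 and no longer a call (edgeR adjusted p = 0.169). In nodules at 14 weeks the level was 0.802 CPM in rat F06 and 1.40, 1.83 and 1.93 CPM in the other 3, against 0.781 to 1.06 CPM without DEN. The log2 fold change there was 0.70 (SE 0.29, edgeR adjusted p = 0.0710), and without rat F06 it was 0.92 and a call (edgeR adjusted p = 0.00150). In NT, Bmp6 was not called at any time, with log2 fold changes of -0.57 (SE 0.30, edgeR adjusted p = 0.159) at 8 weeks, 0.48 (SE 0.23, edgeR adjusted p = 0.0943) at 14 and 0.64 (SE 0.37, edgeR adjusted p = 0.225) at 20 weeks. The 14-week NT value became a call without DEN rat H23 (0.62, edgeR adjusted p = 0.0391).

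Markers of sinusoidal endothelium, the source of Bmp6 and Bmp2, had a higher sum in DEN than in no DEN liver at each time. The 6 detected of 8 markers summed to 68.3 to 188 CPM in no DEN livers, 193 to 262 CPM in NT and 189 to 269 CPM in nodules. At 8 weeks, when Bmp6 was not called in NT, the sum was 203 to 218 CPM in NT against 98.9 to 169 CPM without DEN. At 20 weeks it was 193 to 262 CPM in NT and 189 to 269 CPM in nodules, while Bmp6 was called in nodules alone. The part of endothelial cells in the Bmp6 result was not tested.

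Hfe, the sensor that is mutated in classical hereditary haemochromatosis, had the narrowest range over single rats among the members and was called in no comparison, although the means of the 8 groups lay closer together for Tf (highest to lowest 1.32) than for Hfe (1.34). It ran from 32.4 to 50.9 CPM over the 32 values, and its log2 fold changes against no DEN lay between -0.26 (SE 0.11, edgeR adjusted p = 0.0685) in nodules at 14 weeks and 0.08 (SE 0.07, edgeR adjusted p = 0.456) in NT at 20 weeks.

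The other genes of hepcidin control did not move as 1 block. In the BMP-SMAD signalling list, 14 of 15 detected genes were tested. Bmp2 was higher in all 5 comparisons, with log2 fold changes from 0.73 to 1.31, and its mean rose from 2.54 to 6.16 CPM in NT at 14 weeks. Hemojuvelin, listed as Hfe2, was lower in all 5, by -0.51 to -0.93, and fell from 193 ± 18 to 104 ± 15.0 CPM in nodules at 20 weeks (SD, n = 4). Tmprss6, the protease that cleaves hemojuvelin and so restrains Hamp, was lower in 4 of 5, with the lowest log2 fold change in nodules at 14 weeks (-1.44, SE 0.13, edgeR adjusted p = 3.78e-05). In NT at 20 weeks it was at -0.48, just short of the fold threshold. The counts for the list were 1 up and 3 down, 1 up and 2 down, and 1 up and 1 down in NT at 8, 14 and 20 weeks, then 1 up and 6 down, and 1 up and 4 down in nodules at 14 and 20 weeks. These counts stand beside 21.7%, 32.6% and 18.1% of all genes called in NT at 8, 14 and 20 weeks and 39.1% and 38.8% in nodules. The list's median log2 fold change ran from -0.41 to -0.0605, against medians of all genes near 0.

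Among 6 tested genes that SMAD signalling is known to induce, the same 2, Id1 and Id3, were called in each of the 5 comparisons, and both were higher. Over all genes 18.1% to 39.1% were called in these comparisons, so nothing particular to the list is read from its count. Id1 rose from 2.47 ± 0.656 to 8.81 ± 1.29 CPM in NT at 8 weeks (log2 1.83, SE 0.19, edgeR adjusted p = 8.62e-05) and was highest in nodules at 14 weeks, at 12.3 ± 3.44 CPM. Smad6 and Smad7, inhibitory SMADs of the same list, were not called, with log2 fold changes of -0.10 to 0.14 and -0.34 to 0.15. Id1 was therefore higher at every time, while Hamp was called at 8 weeks alone. The difference between the genes was not tested.

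In the IL-6 and STAT3 list, 8 of 9 detected genes were tested and none was called higher. Il6 itself was below the filter on low counts, with group means of at most 0.0153 CPM, and Socs3, a STAT3 target, was not called, with log2 fold changes of -0.07 to 0.88. The called genes were 1, 2 and 1 in NT at 8, 14 and 20 weeks and 5 and 4 in nodules, of 8 tested, beside 21.7%, 32.6% and 18.1% of all genes in NT and 39.1% and 38.8% in nodules. Cebpa, a hepatocyte transcription factor that acts on Hamp, fell from 302 ± 47.0 to 162 ± 14.4 CPM in NT at 14 weeks and was called in 4 of 5 comparisons. Creb3l3, which codes for the liver stress factor CREBH, was lower in NT at 14 weeks (-0.84, SE 0.10, edgeR adjusted p = 5.53e-05) and in nodules at 14 (-0.99) and 20 weeks (-0.85). Il6r, the IL-6 receptor, was called lower in NT at 8 weeks (-0.63) and in nodules at 14 (-0.92) and 20 weeks (-1.07). The hepatocyte marker sum was lower in the same groups, but its 6 markers did not all fall. Apoa1 was called higher in NT at 14 and 20 weeks and in nodules at both times. Cps1 was called lower in NT at 8 weeks, and Alb, Serpina1, Tat and Ttr in NT and nodules at 14 weeks. Alb, Cps1, Tat and Ttr were called lower in nodules at 20 weeks, and none of the list in NT at 20 weeks. The part of the hepatocyte content in these values was not tested.

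Of 3 tested genes for hepcidin suppressors and hypoxia factors, none was called in NT at 8 and 20 weeks, and 1, the stress cytokine Gdf15, in the other 3 comparisons, where 32.6% to 39.1% of all genes were called. It rose in NT at 14 weeks from 3.79 ± 1.16 to 7.58 ± 1.96 CPM and in nodules to 11.4 ± 3.78 CPM at 14 weeks, while Hif1a and Epas1 were not called in these 5 comparisons.

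**Figure D3:**
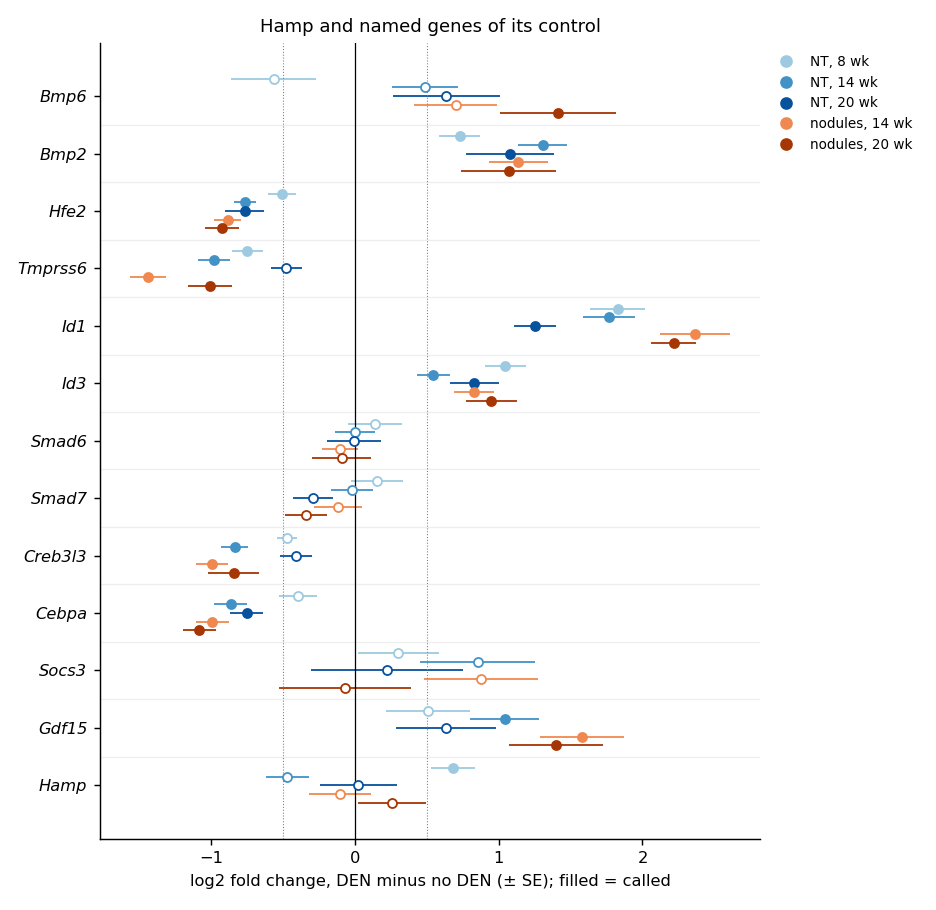
Log2 fold change in DEN against no DEN liver (x axis; horizontal bars, SE; 4 rats per group) for Hamp and named genes of its control, with a colour per comparison; filled points were called. Id1, Id3 and Bmp2 lie to the right and Hfe2 to the left in all 5 comparisons, while Hamp lies on both sides of 0.

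The stretch before the Tfrc start lies at chr11:81690319-81690568 of GRCr8 on the minus strand. It is shown because Tfrc and Slc40a1 had the highest fold changes among the members in NT at 14 and 20 weeks. Capitals mark GGCGCC and the core letters of a hypoxia response element (ACGTG, searched on both strands).
Tfrc: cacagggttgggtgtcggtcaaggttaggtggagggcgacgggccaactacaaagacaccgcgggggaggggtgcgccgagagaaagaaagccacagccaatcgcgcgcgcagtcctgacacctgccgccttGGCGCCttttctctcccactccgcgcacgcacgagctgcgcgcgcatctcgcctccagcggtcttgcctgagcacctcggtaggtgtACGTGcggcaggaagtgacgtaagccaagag
GGCGCC lay 118 to 113 bases and ACGTG 31 to 27 bases before the start, and ACGTG occurred in 16.6% of all windows of the table. No match to ACGTG was found in the windows of the other 6 matched members, and no match to TGACNNNGC, the antioxidant response element core that 10.1% of all windows hold, in those of any of the 7.

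Tfrc, the receptor through which cells take up transferrin, was higher in NT at 14 weeks and in nodules at 14 and 20 weeks. At 14 weeks the no DEN rats had 39.9, 42.2, 45.6 and 66.8 CPM. NT had 60.8 CPM in rat F06 and 121, 128 and 134 CPM in the other 3, and nodules had 65.5 CPM in F06 and 121, 123 and 159.6 CPM in the others. Rat F06 lay within the no DEN range in both tissues, and the 3 rats numbered H lay above it. The log2 fold change was 1.23 in NT (SE 0.27, edgeR adjusted p = 0.00519) and 1.25 in nodules (SE 0.26, edgeR adjusted p = 0.00379).

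At 20 weeks the pattern was similar. The no DEN rats had 47.0, 49.8, 50.7 and 69.6 CPM, NT had 48.3 CPM in rat F03 and 88.3, 90.9 and 130.2 CPM in the others, and nodules had 71.9 CPM in F03 and 91.8, 124 and 132 CPM in the others. Nodules were above every no DEN rat (log2 0.92, SE 0.19, edgeR adjusted p = 0.00298). NT did not pass (0.73, SE 0.27, edgeR adjusted p = 0.0773) and passed without rat F03 (0.93, edgeR adjusted p = 0.00540). At 8 weeks the log2 fold change was 0.24 (SE 0.15, edgeR adjusted p = 0.231), with 54.0 to 72.5 CPM in NT and 46.5 to 72.3 CPM without DEN.

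The sum of 5 proliferation markers moved with Tfrc in part. It was 11.5 to 23.7 CPM in no DEN livers and 78.8 to 99.6 CPM in NT at 8 weeks, when Tfrc was not called. At 14 weeks it was 63.7 CPM in the NT of rat F06 and 117 to 158 CPM in the other 3 rats. Its part in the Tfrc result was not tested.

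Tfr2, the hepatocyte sensor of iron-loaded transferrin, was lower in all 5 comparisons, and in none did the groups overlap. The no DEN rats ranged over 327 to 387 CPM at 8 weeks, 367 to 399 at 14 and 315 to 381 at 20 weeks. NT had 257, 276, 277 and 303 CPM at 8 weeks, 204, 213, 240.2 and 270.3 CPM at 14 weeks, and 244, 274, 275 and 310.2 CPM at 20 weeks. Nodules had 182, 188, 192 and 242 CPM at 14 weeks and 149, 161, 189 and 248 CPM at 20 weeks. Among nodules at 14 weeks the highest value was that of rat F06.

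The Tfr2 difference was called in NT at 14 weeks (-0.69, SE 0.09, edgeR adjusted p = 0.000155) and in nodules at 14 weeks (-0.95, SE 0.11, edgeR adjusted p = 0.000161) and 20 weeks (-0.94, SE 0.17, edgeR adjusted p = 0.00122). In NT at 8 weeks (-0.38, SE 0.08, edgeR adjusted p = 0.00548) and 20 weeks (-0.35, SE 0.10, edgeR adjusted p = 0.0235) the adjusted p passed but the fold did not. The group log2 fold changes of the 2 transferrin receptors thus lay on opposite sides of 0 in every comparison with no DEN liver. Tfrc was however not called in NT at 8 and 20 weeks, and the NT of rats F06 and F03 lay within its no DEN range.

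**Figure D4:**
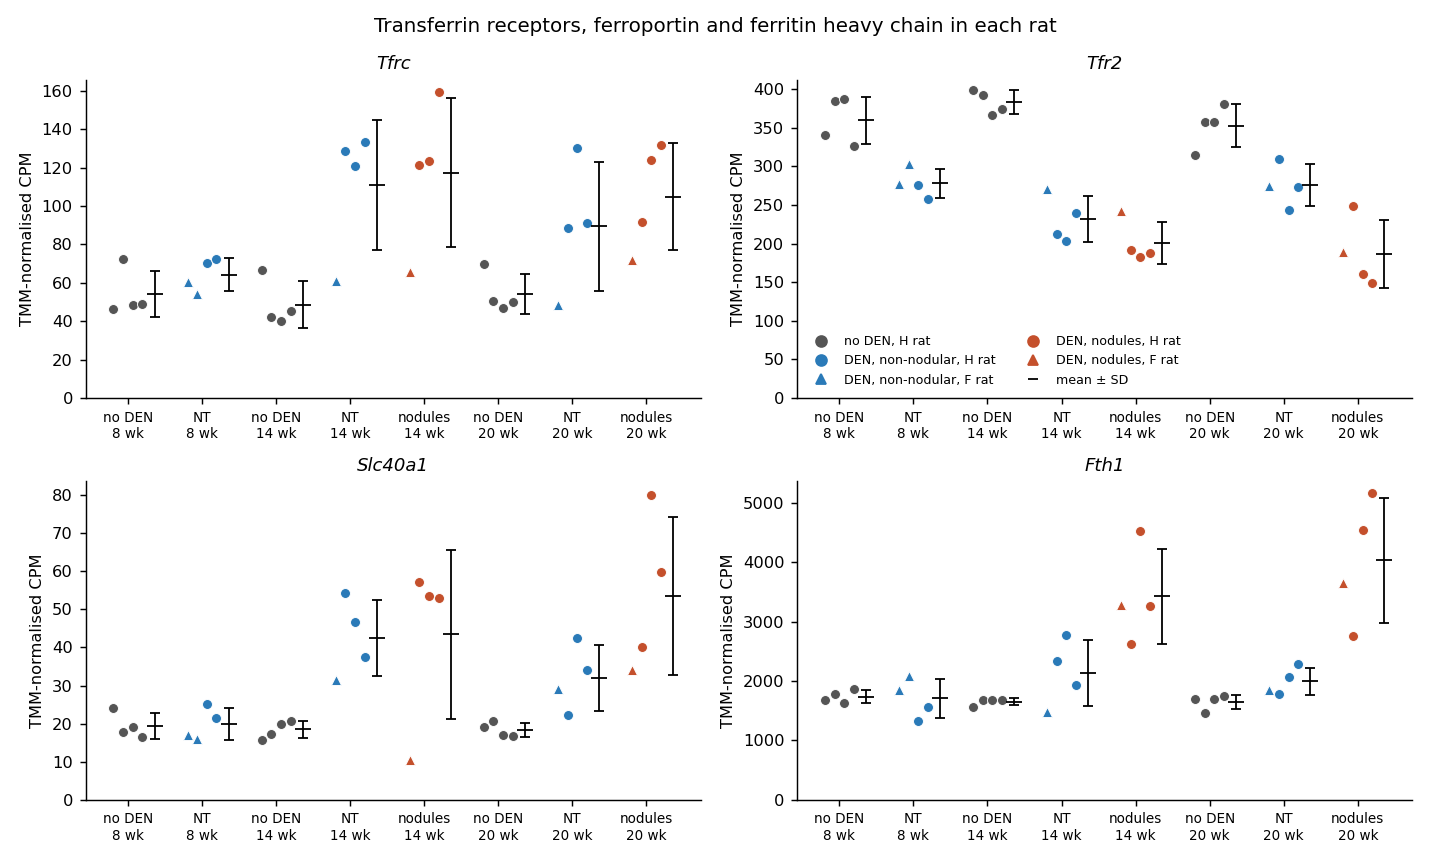
Tfrc, Tfr2, Slc40a1 and Fth1 in TMM-normalised CPM (y axes) in each rat of the 8 groups (x axes); grey is no DEN, blue NT and red nodules, circles are rats numbered H, triangles rats numbered F, and bars the group mean ± SD (n = 4). Tfr2 is lower in every DEN group, Slc40a1 is higher from 14 weeks on, Tfrc is higher in NT at 14 weeks and in nodules while NT at 20 weeks overlaps no DEN, and Fth1 is highest in nodules, with rat F06 low for Tfrc and, in nodules, for Slc40a1.

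Tf, which codes for transferrin, was called in no comparison. At 8 weeks it was 39720, 45860, 46660 and 48910 CPM without DEN and 29340, 29500, 38840 and 39680 CPM in NT, so the groups did not overlap, with the lower pair in the rats numbered H. The log2 fold change was -0.40 (SE 0.12, edgeR adjusted p = 0.0247), under the fold threshold, and among rats numbered H alone it was -0.61 and a call (edgeR adjusted p = 0.00234). At 14 and 20 weeks it lay between -0.34 (SE 0.16, edgeR adjusted p = 0.104) in nodules and 0.03 (SE 0.11, edgeR adjusted p = 0.847) in NT. The lowest value of all 32 was 23910 CPM, in the nodules of rat F06.

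Slc11a2 and Slc39a14, which carry iron across endosomal and plasma membranes, were called lower in nodules and in no NT comparison. Slc11a2 was 10.6, 15.4, 16.5 and 17.6 CPM in nodules at 14 weeks against 22.1, 22.4, 23.3 and 25.6 CPM without DEN. At 20 weeks it was 14.7, 15.1, 17.4 and 19.5 CPM in nodules against 23.4 to 24.2 CPM. Neither pair of groups overlapped, and the log2 fold changes were -0.66 (SE 0.15, edgeR adjusted p = 0.00547) and -0.55 (SE 0.10, edgeR adjusted p = 0.00193). Without rat F06 the 14-week value was -0.50, and without rat F03 or H28 the 20-week value was -0.48, each just short of the fold threshold. With the second nodule of each rat alone the 20-week value was -0.40, also not a call.

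Slc39a14 behaved alike. It was 127, 139, 145 and 157 CPM in nodules at 14 weeks against 181 to 210.2 CPM without DEN, and 125, 130.4, 145 and 149 CPM at 20 weeks against 180.1 to 206 CPM. The log2 fold changes were -0.51 (SE 0.10, edgeR adjusted p = 0.00241) and -0.54 (SE 0.10, edgeR adjusted p = 0.00171). The groups did not overlap, but both values sat on the fold threshold. The 14-week value lost the call without any 1 of no DEN rats H09 and H10 and DEN rats H21, H22 and H23 (-0.50 to -0.43), and the 20-week value without F03 or H28 (-0.49 and -0.48). Over all 16 alternatives, the stricter threshold included, 9 ended the call at 14 weeks and 5 at 20 weeks. In NT, the log2 fold changes were -0.48 (SE 0.07, edgeR adjusted p = 0.000703), -0.28 (SE 0.09, edgeR adjusted p = 0.0171) and -0.28 (SE 0.09, edgeR adjusted p = 0.0343) at 8, 14 and 20 weeks. Slc11a2 in NT at 8 weeks was at -0.49 (SE 0.11, edgeR adjusted p = 0.00656) and passed the fold threshold without no DEN rat H05, H06 or H08 or DEN rat H17 (-0.60 to -0.50). Slc39a14 at 8 weeks passed it without DEN rat F09 or no DEN rat H08 (-0.50 and -0.52).

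Fth1, the ferritin heavy chain that oxidises iron for storage, was called in nodules. The no DEN rats had 1557, 1671, 1675 and 1685 CPM at 14 weeks, and nodules had 2627, 3262, 3281 and 4530 CPM. At 20 weeks no DEN livers had 1463 to 1739 CPM, and nodules had 2756, 3656, 4548 and 5167 CPM. Nodules lay above every no DEN rat at both times, with log2 fold changes of 1.03 (SE 0.15, edgeR adjusted p = 0.000517) and 1.26 (SE 0.19, edgeR adjusted p = 0.000600). Ftl1, the ferritin light chain, rose in the same nodules from 936 ± 92.2 to 1738 ± 324 CPM at 14 weeks and from 918 ± 123 to 1770 ± 335 CPM at 20 weeks. Ferritin genes have near-identical copies elsewhere in the genome and read pairs with several alignments were not counted, so both levels are uncertain.

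In NT, Fth1 was not called. At 14 weeks it was 1483, 1938, 2333 and 2772 CPM, the lowest being rat F06, with a log2 fold change of 0.41 (SE 0.16, edgeR adjusted p = 0.0556). Without F06 this was 0.53 and a call (edgeR adjusted p = 0.00117). At 20 weeks NT had 1783, 1849, 2072 and 2286 CPM, all above the no DEN rats (0.29, SE 0.11, edgeR adjusted p = 0.0705), and at 8 weeks the difference was -0.03 (SE 0.12, edgeR adjusted p = 0.865).

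Slc40a1, ferroportin, was not different at 8 weeks and was higher in NT at 14 weeks. At 8 weeks it was 16.4, 17.8, 19.1 and 24.2 CPM without DEN and 16.1, 17.1, 21.5 and 25.1 CPM in NT (log2 0.04, SE 0.16, edgeR adjusted p = 0.875). At 14 weeks it was 15.8, 17.4, 19.9 and 20.8 CPM without DEN and 31.5, 37.6, 46.8 and 54.2 CPM in NT. The 14-week groups did not overlap, and the log2 fold change was 1.24 (SE 0.17, edgeR adjusted p = 0.000246). The DEN effect thus moved by 1.20 from 8 to 14 weeks (SE 0.25, edgeR adjusted p = 0.0114), and in 1 fit over all 8 groups the adjusted p of this change was 0.159.

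At 20 weeks Slc40a1 stayed higher in NT. Without DEN it was 16.9, 16.9, 19.1 and 20.7 CPM, and in NT it was 22.2, 29.0, 34.1 and 42.5 CPM, without overlap (log2 0.81, SE 0.17, edgeR adjusted p = 0.00793). The call was lost in 1 fit over all 8 groups (edgeR adjusted p = 0.0653). In nodules at 20 weeks it was 34.2, 40.1, 59.7 and 80.1 CPM (log2 1.51, SE 0.23, edgeR adjusted p = 0.000660).

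In nodules at 14 weeks 1 rat stood apart. Rats H21, H22 and H23 had 57.2, 53.5 and 53.0 CPM of Slc40a1, whereas F06 had 10.4 CPM, below every no DEN rat. The log2 fold change was 1.21 with all 4 rats (SE 0.43, edgeR adjusted p = 0.0420) and 1.57 without F06 (edgeR adjusted p = 4.45e-08). Leaving out any 1 of the other 7 rats of the comparison, H09 to H12 without DEN and H21 to H23 with DEN, ended the call, with edgeR adjusted p values of 0.0762 to 0.103. The nodules of F06 also had the highest erythroid marker sum, 756 CPM against 106 to 168 CPM in the other 3 rats, and a macrophage sum of 726 CPM against 338 to 422 CPM. Macrophages, which recycle iron from red cells, express ferroportin strongly. In NT at 14 weeks the macrophage sum was 860 CPM in F06 and 325 to 423 CPM in the other 3 rats, against 348 to 522 CPM in no DEN livers. Of the 7 macrophage markers tested there, Cd68 was called higher (0.60, SE 0.14, edgeR adjusted p = 0.00475) and none lower, with a median log2 fold change of 0.44. The part of these cells, and of the high share of pairs outside exons in both F06 nodule libraries, in the Slc40a1, Tf and Tfr2 values was not tested.

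Nodules and NT of the same rat were then compared. In the fit without pairing, 0 of 10 members were called at 14 and at 20 weeks, where 0% of all genes were called. At an unadjusted p of at most 0.05, 1348 and 2767 genes passed, and DESeq2 called 40 and 881 genes. With the rat as a block, since both tissues came from the same animal, 1693 genes were called at 20 weeks and 0 at 14 weeks. At 20 weeks 4 of 10 members were called with the block: Fth1 (0.95, edgeR adjusted p = 0.000315), Slc40a1 (0.68, edgeR adjusted p = 0.00183) and Bmp6 (0.82, edgeR adjusted p = 0.0224) were higher in nodules, and Tfr2 (-0.61, edgeR adjusted p = 0.000954) was lower. Without the block, edgeR gave Fth1 0.98 (SE 0.20, adjusted p = 0.0949) and Tfr2 -0.59 (SE 0.17, adjusted p = 0.112), and both were called when rat H25 was left out (1.07, adjusted p = 0.0323, and -0.70, adjusted p = 0.0389). Fth1 was higher in the nodules than in the NT of each of the 4 rats at both weeks, and Tfr2 was lower in each. At 14 weeks the log2 difference was 0.66 for Fth1 (SE 0.22, edgeR adjusted p = 0.404) and -0.23 for Tfr2 (SE 0.14, edgeR adjusted p = 0.486), and with the block 0.67 (edgeR adjusted p = 0.168) and -0.23 (edgeR adjusted p = 0.180). Hamp was higher in nodules in 3 of 4 rats at 20 weeks and in 4 of 4 at 14 weeks, with blocked log2 values of 0.26 (edgeR adjusted p = 0.0796) and 0.36 (edgeR adjusted p = 0.209).

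The 2 nodules of a rat could differ widely. The highest ratio between them was 4.41, for Bmp6 in rat F03 at 20 weeks, and the median ratio over the 4 rats of a week was 1.16 and 1.43 for Hamp, 1.45 and 1.66 for Fth1 and 1.65 and 1.59 for Slc40a1 at 14 and 20 weeks. Slc40a1 was 14.9 CPM in the first and 50.0 CPM in the second nodule of rat F03, a ratio of 3.36. In rat F06 both nodules were low, with 7.74 and 13.01 CPM, while the remaining nodules of both weeks had 37.6 to 102 CPM. Hamp was highest in the first nodule of F06, at 662 CPM, and in the first nodule of F03, at 644 CPM, and lowest in the first nodule of H28, at 175 CPM, whose second nodule had 447 CPM. Slc39a14 had the smallest spread over the 8 nodules at 14 weeks, with 129 to 164 CPM, and Hfe at 20 weeks, with 40.01 to 47.2 CPM.

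**Figure D5:**
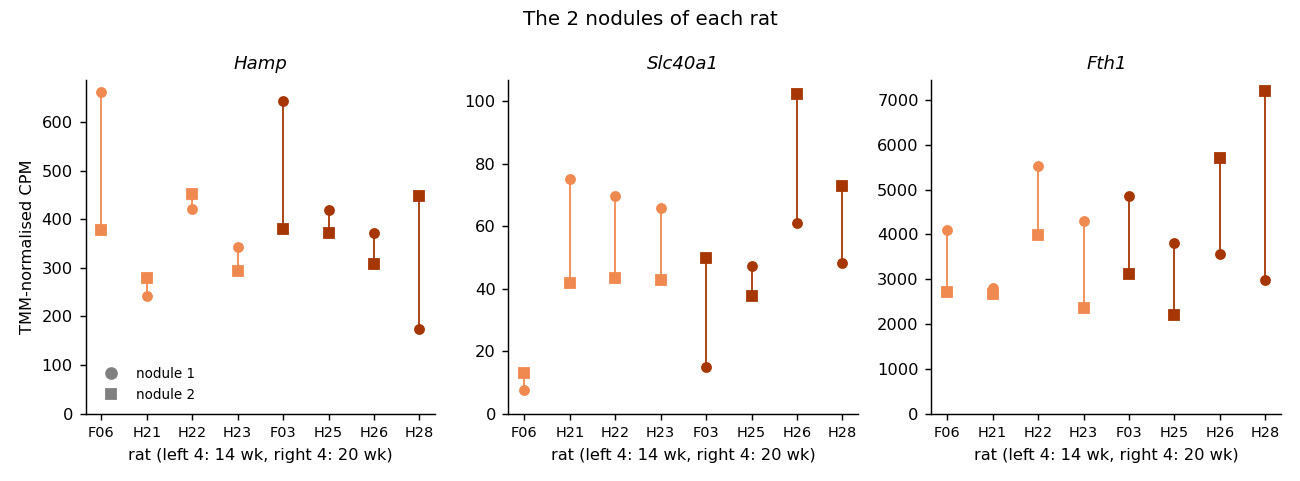
Hamp, Slc40a1 and Fth1 in TMM-normalised CPM (y axes) in the 2 nodules of each rat (x axes; circles, nodule 1; squares, nodule 2; the line joins the nodules of a rat; light, 14 weeks; dark, 20 weeks). The nodules of F06 and the first nodule of F03 are the lowest for Slc40a1, and the 2 nodules of rat H28 lie far apart for Hamp and Fth1.

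Other genes of iron handling were counted from lists of the same pathway. Of 83 detected genes outside the 10 members, 8 were higher and 8 lower of 73 tested in NT at 8 weeks, 10 and 11 of 74 at 14 weeks, and 8 and 5 of 73 at 20 weeks. In nodules 12 were higher and 22 lower of 74 at 14 weeks, and 12 and 20 of 74 at 20 weeks. Over all genes, 21.7%, 32.6% and 18.1% were called in NT at 8, 14 and 20 weeks and 39.1% and 38.8% in nodules, and nothing particular to iron genes is read from these counts. Their median log2 fold change lay between -0.24 and -0.087 in the 5 comparisons.

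Among ferroxidases, reductases and carriers, Heph, a copper ferroxidase that works beside ferroportin, rose from 0.577 ± 0.235 to 10.4 ± 4.08 CPM in NT at 14 weeks and to 20.7 ± 11 CPM in nodules (log2 5.12, SE 0.47, edgeR adjusted p = 4.92e-05). It was called in all 5 comparisons. Markers of other cells were higher in the same groups: the 3 detected of 4 bile duct markers summed to 15.7 to 22.7 CPM in no DEN livers, 34.6 to 83.1 CPM in NT at 14 weeks and 57.4 to 112 CPM in nodules at 14 weeks, and all 3 were called higher in both. The 8 stellate cell and fibroblast markers summed to 205 to 299.6 CPM, 417 to 526 CPM and 463 to 529.9 CPM in these groups. Of these 8, 6 were called higher and 1, Pdgfrb, lower in NT at 14 weeks. In nodules at 14 weeks 5 were called higher and 0 lower. The part of these cells in the Heph values was not tested. Cp, the plasma ferroxidase ceruloplasmin, was called lower in nodules alone, at 14 weeks (-0.61, SE 0.11, edgeR adjusted p = 0.00144) and at 20 weeks (-0.56, SE 0.15, edgeR adjusted p = 0.0112). Slc39a8, the metal carrier ZIP8 and a relative of Slc39a14, fell from 80.6 ± 4.70 to 43.4 ± 2.17 CPM in NT at 14 weeks and was called in 4 of 5 comparisons.

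Of the genes for iron sensing, Aco1, which codes for iron regulatory protein 1, was lower in all 5 comparisons, from 216 ± 9.97 to 141 ± 6.06 CPM in NT at 14 weeks and from 217.5 ± 29.0 to 116 ± 19.4 CPM in nodules at 20 weeks. Ireb2, for iron regulatory protein 2, was called in nodules at 20 weeks (-0.51, SE 0.13, edgeR adjusted p = 0.00896). Ncoa4, the receptor that takes ferritin to lysosomes, and Fbxl5, which targets iron regulatory protein 2 for degradation, were not called, with log2 fold changes of -0.26 to -0.12 and -0.21 to -0.060.

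Among heme genes, Slc48a1, a carrier of heme out of lysosomes, rose from 28.8 ± 2.12 to 112 ± 32 CPM in nodules at 14 weeks and was called in 4 of 5 comparisons, and Flvcr2, a transporter of the FLVCR family, was higher in all 5. Hmox1, heme oxygenase 1, which frees iron from heme, was called in NT at 20 weeks (0.61, SE 0.18, edgeR adjusted p = 0.0290) and in nodules at 14 (0.54) and 20 weeks (0.81). Slc46a1, a folate carrier that also takes up heme, fell from 56.2 ± 4.54 to 15.6 ± 1.53 CPM in nodules at 14 weeks and was lower in all 5. Of 16 genes for mitochondrial iron and heme synthesis, 1, 4 and 1 were called in NT at 8, 14 and 20 weeks and 5 and 4 in nodules, where 21.7%, 32.6%, 18.1%, 39.1% and 38.8% of all genes were. All of these were lower except Slc25a37, the mitochondrial iron importer mitoferrin 1, which was higher at 14 weeks in NT (0.69) and nodules (0.68).

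The genes whose level was most like that of a member were ranked by Pearson correlation of log2 CPM over the 32 rat-by-tissue values, among 10066 genes with a mean of at least 1 CPM. For Tfrc these were Polr3g (r = 0.935, Spearman's rho = 0.915), Xpo1 (0.930, 0.889), Nup205 (0.926, 0.868), Ctps1 (0.925, 0.886) and Trim37 (0.925, 0.899). For Hamp the highest were Actr5 (r = 0.661, Spearman's rho = 0.667), Ssbp1 (0.658, 0.655), Guk1 (0.643, 0.719), Myl9 (0.638, 0.640) and Nthl1 (0.624, 0.621). The values share rats, treatment groups and scaling and are not independent, so no p is given. Hamp had no gene as close to it as Tfrc had.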

How the data were processed

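Liver messenger RNA was sequenced in 40 libraries (TruSeq Stranded mRNA, 75 bp paired-end reads). Per the study's methods and the submitters' processing notes, the authors aligned reads to the rn6 genome with STAR 2.7.1a and counted pairs per gene with HTSeq, on the reverse strand, within exons and without pairs of several alignments. The deposited values are raw counts per gene, 1 file per library, for 17337 genes. The 5 summary lines of each file were left out of library sizes and tests; pairs with several alignments made up 7.96% to 16.3% of a library.

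Groups came from the labels. The 2 nodules of a rat were summed, and genes were kept by filterByExpr within each comparison. The main test was edgeR 4.0.16 (glmQLFit and glmQLFTest, robust, TMM scaling, R 4.3.3) on the groups compared, with p-values adjusted by Benjamini-Hochberg over all genes tested; log2 CPM used a prior count of 2. Each interaction was fitted on the 4 groups it involves. DESeq2 1.42.0, RLE scaling, no filter, all 8 groups in 1 fit, rats numbered H alone, single nodules, a stricter threshold (log2 of at least 1, adjusted p of at most 0.01), a block for rat and leaving out each rat were alternatives. The replicate number is the rat, so nodules and NT of a rat are paired: their deviations from group means correlated at r = 0.387 to 0.649 over 10067 genes. No 2 libraries of a group agreed within sampling noise (the lowest chi-square was 12.9 per degree of freedom). The test was checked on simulated counts.

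The 10 genes and all lists were chosen with earlier results of these data known. All members were described; of other lists, up to 3 called genes of at least 1 CPM on average with the largest fold change per list and comparison were named, plus Id1, Smad6, Smad7, Tmprss6, Hfe2, Bmp2, Il6, Socs3, Creb3l3, Gdf15, Ftl1, Cp, Hmox1, Ncoa4, Ireb2, Aco1 and Fbxl5. Genes named outside that rule (Hif1a, Epas1, Cd68) were chosen after their values were seen. Promoter windows were read from RefSeq (GRCr8). Figures were drawn with matplotlib 3.10.9.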

Additional observations from a re-analysis of the deposited data

Results flagged for a closer look

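Each member was examined in each group of 4 rats for a value far from the other 3. The Dixon rule was used, which sets the gap to the nearest value against the range of the 4 CPM values. It gave 9 such values in 80 sets. The rule flags about 1 in 20 sets by chance, but the same rats recur across genes. The sets are therefore not independent, and no excess over chance is read from the count. Rat F06 gave 3 of them in nodules at 14 weeks, with Slc40a1 at 10.4 CPM (other rats 53.0 to 57.2), Tf at 23900 CPM (37800 to 40000) and Tfr2 at 242 CPM (182 to 192); both of its nodule libraries had a high share of pairs outside exons, 34.5% and 28.2%. Rat H28 gave the lowest Hfe at 20 weeks in both tissues, at 46.1 CPM in NT (49.8 to 50.4) and 39.3 CPM in nodules (42.8 to 43.5). In no DEN livers, Tfrc was high in rat H06 at 8 weeks, at 72.3 CPM (46.5 to 49.1), and in rat H13 at 20 weeks, at 69.6 CPM (47.0 to 50.7). Rat H09 at 14 weeks had the lowest Tf, at 40400 CPM (44400 to 45000), and the lowest Fth1, at 1560 CPM (1670 to 1680).

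The DEN effect in NT differed between 14 and 8 weeks for Hamp, by -1.15 on the log2 scale, and for Slc40a1, by 1.20, both in the edgeR interaction test.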

How the results depend on the processing

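Over 100 gene results and 1650 alternative values, 1565 kept their side of the threshold, 42 lost a call, 43 gained one and none reversed a call; 56 values that were called in neither fit changed sign. Most losses were of Slc11a2, Slc39a14 and Slc40a1 in nodules. The stricter threshold left 0 members called in NT at 8 and at 20 weeks, and 2 in nodules at 14 and 2 at 20 weeks. In NT at 14 weeks Tfrc and Slc40a1 kept their calls and Tfr2 did not. Of all genes, it left 855, 1676 and 565 called in NT at 8, 14 and 20 weeks. In nodules at 14 and 20 weeks it left 2117 and 1946. A stricter threshold lowers these counts by its construction. In NT at 8 weeks, DESeq2, RLE scaling, no filter and rats numbered H alone each called 2 members. At 20 weeks DESeq2 and rats numbered H alone each called 2. The change of the DEN effect from 8 to 14 weeks was called for 0 members in 1 fit over all 8 groups and for 5 with rats numbered H alone.

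The count of all genes called, and of iron genes called, in nodules against NT also depended on the fit. At 14 weeks DESeq2 called 40 genes. At 20 weeks the replicate block called 4 members and 1693 genes, DESeq2 2 and 881, 1 fit over all 8 groups 2 and 1096, and nodule 1 alone 2 and 218; the block changed no other member's call. The members gained were Fth1 and Tfr2 in each of these 20-week fits, with Slc40a1 and Bmp6 under the block.

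Leaving out 1 rat at a time gave 1 to 3 members called in NT at 8 weeks (3 without H08), 3 to 4 at 14 weeks, 1 to 2 at 20 weeks (2 without F03), 4 to 6 and 5 to 7 in nodules at 14 and 20 weeks, 0 to 2 in nodules against NT at 20 weeks (0 to 445 genes, the highest without H25) and 2 to 5 for the change from 8 to 14 weeks, the highest without F06. The causes were not tested. Bmp6, with as few as 9 counts in a rat, is the member most limited by depth. Groups of 4 rats limit all comparisons. The 1 or 2 rats numbered F per DEN group limit those with no DEN liver, since rats numbered F had control rats numbered H alone.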
